A study of Mus musculus with 48 samples.

Results

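Endothelial cells are held to each other by adherens and tight junctions, and 9 genes of these junctions are described here: Cdh5, Pecam1, Cldn5, Ocln, Tjp1, Esam, F11r, Jam2 and Jam3. They were chosen by name, as known components of endothelial contacts, and matched by their Ensembl identifier to 9 of the 54752 genes in the expression matrix. All 9 had 1 TPM or more in at least 3 libraries of every comparison and were therefore tested in each of them. TPM is the abundance of a gene's transcripts, scaled for transcript length and as a share of the total of the library.

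The libraries came from male Prox1-eGFP mice on a C57BL/6 background, in which eGFP was knocked into the Prox1 gene and marks lymphatic endothelium. Mice carried a minipump for 5 to 6 weeks that delivered BSA alone (ctrl), human angiotensin II in BSA (angII), or angiotensin II with VEGFCc156s (angII+VEGFC), a form of the lymphatic growth factor that activates VEGFR3 and not VEGFR2. Lymphatic endothelial cells (LECs) of heart and diaphragm and blood endothelial cells (BECs) of the heart were sorted as CD31-positive, CD45.2-negative cells and split by eGFP, whereas cardiomyocytes were pelleted from the digested heart without a sort. Each of the 4 populations had 4 ctrl, 5 angII and 3 angII+VEGFC libraries, 48 libraries from 13 mice in all. The labels give ages of 8 to 16 months, with ctrl and angII mice covering the whole range and angII+VEGFC mice 8 to 15 months, whereas the study's methods give the age in weeks. CD31 is the product of Pecam1, so the level of Pecam1 in the sorted cells is not independent of the sort. In libraries of this kind, fewer cells of a type and less RNA of a gene per cell cannot be told apart.

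VE-cadherin, the product of Cdh5, spans adherens junctions and is tied to the actin cytoskeleton through catenins. Claudin-5 (Cldn5) and occludin (Ocln) span tight junctions, and ZO-1 (Tjp1) is the scaffold beneath them. Esam, F11r (JAM-A), Jam2 (JAM-B) and Jam3 (JAM-C) are immunoglobulin-like proteins of the tight junction region that also take part in the passage of leukocytes, as does Pecam1. Initial lymphatic vessels are known for discontinuous, button-like junctions that admit fluid, and collecting lymphatics and blood capillaries for continuous, zipper-like ones.

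The promoters of Cldn5 and Ocln are shown because these 2 tight junction genes had the highest and the lowest mean of the 9 genes in LECs. RefSeq windows were found for 4 of the 9 genes (Cldn5, Ocln, Tjp1 and F11r), and of the 2 Ocln windows the upstream one is shown. The sequences are the 250 bases before the transcript start in RefSeq on GRCm38.p6, in the direction of transcription, and capitals mark the GC box (GGGCGG on either strand).
Cldn5, chr16:18776597-18776846, plus strand: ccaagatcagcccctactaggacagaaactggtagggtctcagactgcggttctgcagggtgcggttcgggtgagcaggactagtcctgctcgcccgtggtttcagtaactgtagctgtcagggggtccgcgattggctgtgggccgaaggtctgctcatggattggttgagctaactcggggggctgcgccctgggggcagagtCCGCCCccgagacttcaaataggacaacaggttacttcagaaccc
Ocln, chr13:100552719-100552968, minus strand: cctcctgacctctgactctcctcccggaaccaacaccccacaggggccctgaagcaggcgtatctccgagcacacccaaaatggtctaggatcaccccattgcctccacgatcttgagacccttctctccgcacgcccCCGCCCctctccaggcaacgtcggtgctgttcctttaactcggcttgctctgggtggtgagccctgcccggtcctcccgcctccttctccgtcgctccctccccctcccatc
Both windows held 1 GC box, a match found in 32.7% of the 32851 promoter windows of this length, and their GC content was 59.6% in Cldn5 and 64.0% in Ocln. Neither of the windows shown held an ETS motif (CNGGAAG), a Snail E-box (CACCTG) or a TATA box (TATAAA) on either strand. These motifs occur in 26.6%, 17.2% and 12.4% of all windows. Another Ocln window, from a start 220 bases downstream of the first, held 2 Snail E-box matches and 1 GC box. No match means only that these letters are not in this window.

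Marker genes followed the labels, with transcripts of other cell types in every population. The summed level of 6 lymphatic markers (Prox1, Lyve1, Flt4, Pdpn, Reln and Mmrn1) was 2932 to 5426 TPM in heart LECs and 6980 to 11063 TPM in diaphragm LECs, against 91.6 to 153 TPM in heart BECs. The summed level of 6 blood endothelial markers (Nos3, Flt1, Kdr, Emcn, Cd36 and Aqp1) was 4986 to 8506 TPM in heart BECs, but 1634 to 3449 TPM in heart LECs and 1001 to 1612 TPM in diaphragm LECs, so these transcripts were present in every LEC library. Cardiomyocyte libraries held 7696 to 20275 TPM of 6 cardiomyocyte markers, with 821 to 1367 TPM of the blood endothelial ones, 2116 to 4672 TPM of 5 fibroblast markers and 413 to 1332 TPM of 5 leukocyte markers. They also held 701 to 1448 TPM of 5 mural cell markers and 8927 to 24840 TPM of 4 erythroid markers. The median erythroid sum, 17945 TPM, was above that of the cardiomyocyte markers, 11756 TPM. The count of genes reaching 1 TPM, used in place of the unknown depth, was 16131 to 25896 in heart LECs, 12924 to 23691 in diaphragm LECs, 15076 to 21913 in heart BECs and 13020 to 19306 in cardiomyocytes. In LECs it was higher with angII, with medians of 18360, 22814 and 18425 in the ctrl, angII and angII+VEGFC groups of heart LECs and of 16862, 20742 and 16427 in diaphragm LECs.

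**Figure D1:**
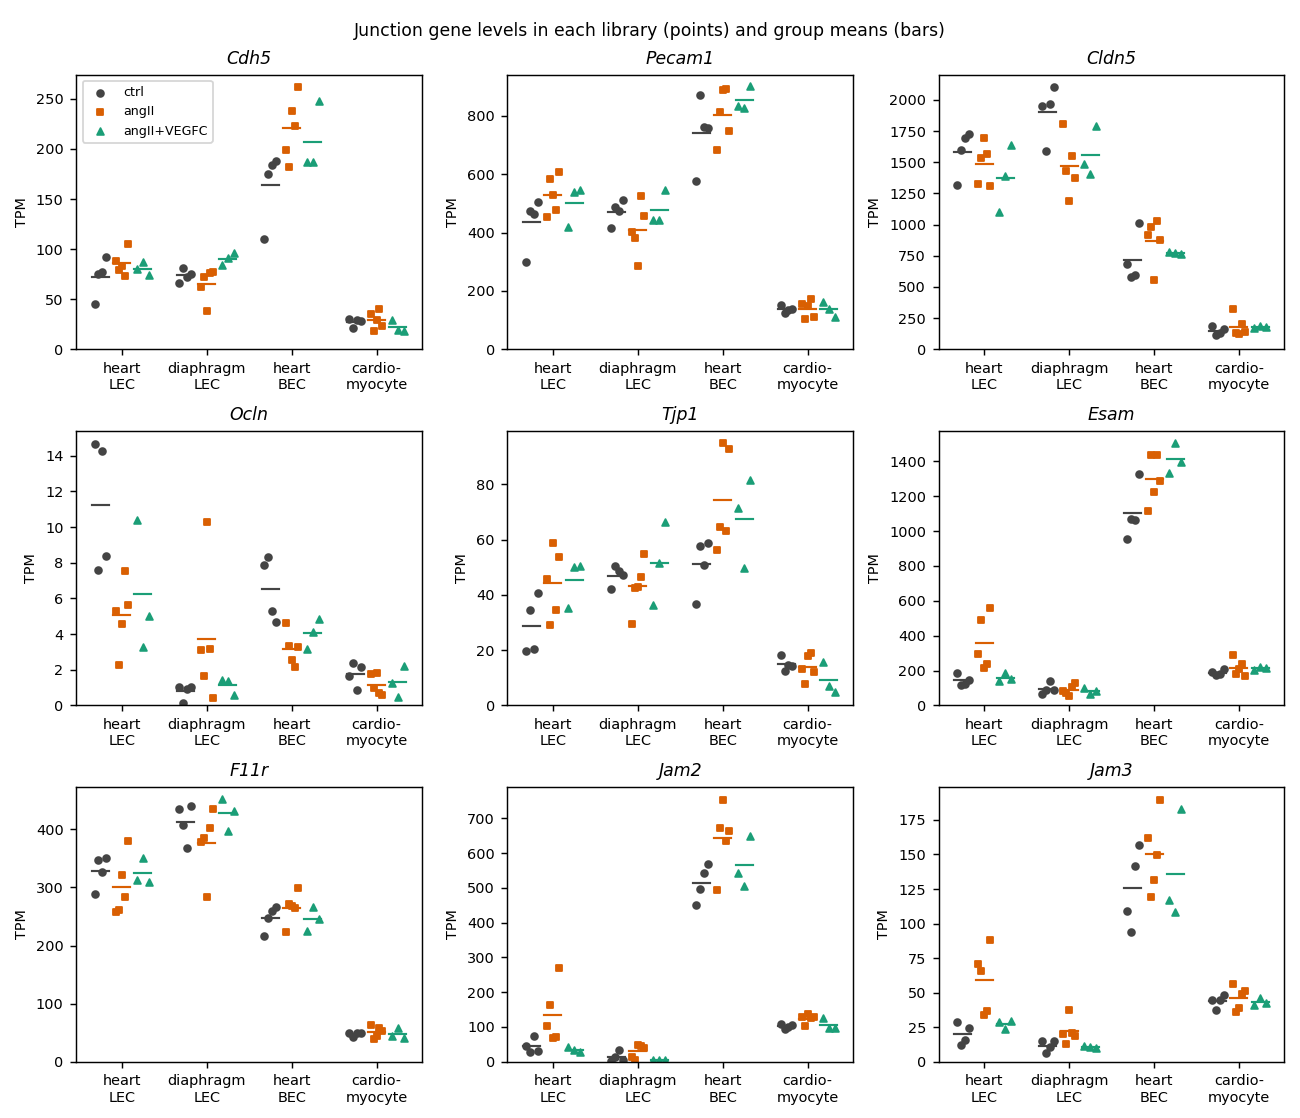
Level in TPM (linear axes from 0, one panel per gene) of the 9 junction genes in the 48 libraries, by population and treatment, with each point a library and each bar a group mean. Esam, Jam2 and Jam3 sit highest in heart BECs, Cldn5 in both LEC populations, and Ocln stays under 15 TPM in every library.

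The first question was how the junction genes differ between the endothelial populations. In heart BECs 6 of the 9 genes were higher than in heart LECs (Cdh5, Pecam1, Tjp1, Esam, Jam2 and Jam3), 2 were lower (Cldn5 and F11r) and Ocln did not pass the test. Against diaphragm LECs the same count of 6 was higher in heart BECs (Cdh5, Pecam1, Ocln, Esam, Jam2 and Jam3), 2 were lower (Cldn5 and F11r) and Tjp1 did not pass. Between the LEC populations 4 genes were higher in the heart (Ocln, Esam, Jam2 and Jam3), F11r was higher in the diaphragm, and Cdh5, Pecam1, Cldn5 and Tjp1 did not pass. These calls are from limma on log2(TPM + 1) values at a Benjamini-Hochberg adjusted p under 0.05 over 32754 genes. Of all genes tested, 8.64% were higher and 8.94% lower in heart BECs than in heart LECs, 9.01% were higher and 7.54% lower in heart BECs than in diaphragm LECs, and 2.67% were higher and 1.88% lower in heart LECs than in diaphragm LECs. The median difference of the 9 genes was 0.72 log2 units for heart BECs minus heart LECs, 1.17 for heart BECs minus diaphragm LECs and 0.10 for heart LECs minus diaphragm LECs, beside -0.15, -0.03 and 0.10 over all genes. In heart LECs the blood endothelial markers summed to 1634 to 3449 TPM and the fibroblast markers to 686 to 1573 TPM. In diaphragm LECs these sums were 1001 to 1612 TPM and 123 to 991 TPM, whereas the lymphatic sum was higher there. In heart BECs the fibroblast markers summed to 416 to 3614 TPM and the erythroid markers to 5212 to 31233 TPM. The erythroid sums were 6.98 to 6525 TPM in heart LECs and 12.6 to 4853 TPM in diaphragm LECs. The part of all these marker transcripts in the population differences was not tested.

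**Figure D2:**
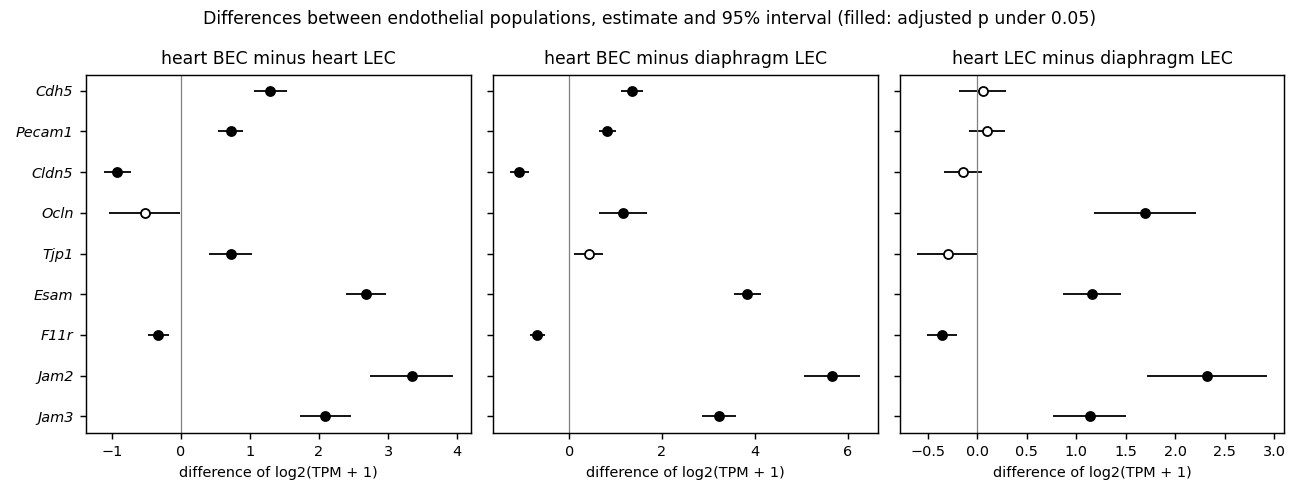
Difference of log2(TPM + 1) between endothelial populations (horizontal axis) for each junction gene, as the limma estimate with its 95% interval over 36 libraries; filled points have an adjusted p under 0.05. Jam2 shows the widest separation, 3.34 log2 units between heart BECs and heart LECs and 5.66 between heart BECs and diaphragm LECs, and Cldn5 and F11r lie left of 0 in both comparisons with BECs.

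Among the adherens junction and contact genes, Cdh5 (ENSMUSG00000031871, GRCm38 chromosome 8, 104101625 to 104144511, plus strand) ranged from 110 to 262 TPM in heart BECs (median 187), from 45.3 to 105 TPM in heart LECs (median 79.9) and from 37.7 to 96.2 TPM in diaphragm LECs (median 75.7). No heart BEC library overlapped with a LEC library, and the heart BEC mean was 2.48 times that of heart LECs. The difference between heart BECs and heart LECs was 1.29 log2 units (SE 0.12, limma adjusted p = 1.01e-10), and the BEC level was the higher one in 12 of 12 mice. The LEC populations of heart and diaphragm differed by 0.05 log2 units, with a 95% interval from -0.18 to 0.29.
Pecam1 (ENSMUSG00000020717, chromosome 11, 106654217 to 106750628, minus strand) had 576 to 902 TPM in heart BECs (median 819), 301 to 607 TPM in heart LECs (median 492) and 287 to 546 TPM in diaphragm LECs (median 451). The ranges of heart BECs and heart LECs overlapped, although heart BECs were higher in 12 of 12 mice, by 0.72 log2 units (SE 0.09, limma adjusted p = 7.79e-08). Since all 3 populations were sorted on this protein, the values describe the sorted cells. Heart minus diaphragm LECs gave 0.10 log2 units, with a 95% interval from -0.08 to 0.28.

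Of the tight junction genes, Cldn5 (ENSMUSG00000041378, chromosome 16, 18776847 to 18778262, plus strand) was the most abundant of the 9 in LECs, with 1098 to 1724 TPM in heart LECs (median 1552) and 1185 to 2104 TPM in diaphragm LECs (median 1571). In heart BECs it had 558 to 1028 TPM (median 776), below every LEC library, and the heart LEC mean was 1.88 times that of heart BECs. Heart BECs minus heart LECs was -0.93 log2 units (SE 0.10, limma adjusted p = 2.6e-09), and the LECs were higher in 12 of 12 mice. The LEC populations differed by -0.15 log2 units (heart minus diaphragm), with a 95% interval from -0.34 to 0.05.
Ocln (ENSMUSG00000021638, chromosome 13, 100496507 to 100552718, minus strand) was the least abundant, at 2.27 to 14.7 TPM in heart LECs (median 6.61), 2.16 to 8.31 TPM in heart BECs (median 4.36) and 0.163 to 10.3 TPM in diaphragm LECs (median 1.22). Ocln was higher in heart than in diaphragm LECs by 1.69 log2 units (SE 0.25, limma adjusted p = 2.06e-05), in 11 of 11 mice that have both libraries. Heart BECs minus heart LECs gave -0.53 log2 units, with a 95% interval from -1.04 to -0.01 and an adjusted p of 0.16 in limma, and heart LECs were higher in 9 of 12 mice. This difference was -0.22 after quantile normalization.
Tjp1 (ENSMUSG00000030516, chromosome 7, 65296165 to 65527781, minus strand) had 36.8 to 94.9 TPM in heart BECs (median 60.9), 29.6 to 66.5 TPM in diaphragm LECs (median 46.8) and 19.7 to 58.9 TPM in heart LECs (median 38.0). The 3 ranges overlapped. Heart BECs were higher than heart LECs by 0.72 log2 units (SE 0.15, limma adjusted p = 5.77e-04), in 11 of 12 mice. Heart BECs minus diaphragm LECs was 0.42 log2 units and did not pass (limma adjusted p = 0.0585), whereas with the mouse as a block it did, at 0.39 log2 units (adjusted p = 0.0184), so 9 of 9 genes then differed between these populations. In the ctrl libraries alone the difference was 0.097 log2 units (limma adjusted p = 0.876). Heart minus diaphragm LECs was -0.30 log2 units, with a 95% interval from -0.61 to 0.01, and -0.75 in the ctrl libraries alone (adjusted p = 0.098 in limma).

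The immunoglobulin-like genes split into 3 that were highest in blood endothelium and 1 that was highest in lymphatic endothelium. Esam (ENSMUSG00000001946, chromosome 9, 37528078 to 37538319, plus strand), an endothelial adhesion molecule, had 955 to 1503 TPM in heart BECs (median 1309), 116 to 556 TPM in heart LECs (median 186) and 56.6 to 139 TPM in diaphragm LECs (median 86.6). Heart BECs were above every LEC library, with a mean 5.31 times that of heart LECs and 14.1 times that of diaphragm LECs. The differences were 2.68 log2 units against heart LECs (SE 0.14, limma adjusted p = 3.04e-16) and 3.84 against diaphragm LECs (SE 0.14, limma adjusted p = 8.92e-21).
Jam2 (ENSMUSG00000053062, chromosome 16, 84774123 to 84825928, plus strand), a partner of JAM-C on endothelium, had 450 to 753 TPM in heart BECs (median 556), 27.9 to 268 TPM in heart LECs (median 56.9) and 3.03 to 49.1 TPM in diaphragm LECs (median 9.28). Its mean in heart BECs was 7.28 times that of heart LECs and 31.6 times that of diaphragm LECs. Jam2 was higher in heart BECs than in heart LECs by 3.34 log2 units (SE 0.30, limma adjusted p = 7.84e-11), and higher in heart than in diaphragm LECs by 2.32 (SE 0.30, limma adjusted p = 1.48e-06).
Jam3 (ENSMUSG00000031990, chromosome 9, 27097384 to 27155421, minus strand) had 94.2 to 190 TPM in heart BECs (median 137), 11.9 to 87.7 TPM in heart LECs (median 29.3) and 6.35 to 37.3 TPM in diaphragm LECs (median 13.9). No heart BEC library overlapped with a LEC library. The difference was 2.09 log2 units between heart BECs and heart LECs (SE 0.18, limma adjusted p = 3.13e-11) and 1.13 between heart and diaphragm LECs (SE 0.18, limma adjusted p = 5.19e-05).
F11r (ENSMUSG00000038235, chromosome 1, 171437535 to 171464603, plus strand), which encodes JAM-A, ran the other way, with 283 to 452 TPM in diaphragm LECs (median 405), 257 to 381 TPM in heart LECs (median 317) and 217 to 299 TPM in heart BECs (median 262). Neighbouring ranges overlapped. Diaphragm LECs were above heart LECs in 11 of 11 mice (heart minus diaphragm -0.36 log2 units, SE 0.08, limma adjusted p = 0.00216), and heart LECs above heart BECs in 11 of 12 mice (BEC minus LEC -0.33 log2 units, SE 0.08, limma adjusted p = 0.00146).

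In the ctrl libraries alone 1 of the 9 genes passed between heart and diaphragm LECs, in place of 5. Ocln then differed by 2.76 log2 units (limma adjusted p = 0.00385), and Jam2 by 2.10 (0.0646), Jam3 by 0.73 (0.271), Esam by 0.60 (0.196) and F11r by -0.33 (0.202), with the limma adjusted p in parentheses. With these 4 libraries a population the signs of the 5 genes were those over all treatments, and the comparison rests on fewer libraries. The sizes changed too, since over all treatments Esam differed by 1.16, Jam3 by 1.13 and Ocln by 1.69 log2 units. The estimates over all treatments include the angII libraries, in which Esam had 216 to 556 TPM in heart LECs, against 116 to 188 TPM in ctrl. The part of the angII libraries in these differences was not tested.

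The balance of junction transcripts within a library differed too. Of the summed TPM of the 9 genes, Cldn5 made up 38.9% to 60.4% in heart LECs (median 56.2%) and 53.1% to 65.1% in diaphragm LECs (median 59.3%), but 13.4% to 23.7% in heart BECs (median 19.4%). Esam made up 29.0% to 35.6% in heart BECs (median 30.4%), 4.31% to 16.5% in heart LECs (median 7.06%) and 2.24% to 4.94% in diaphragm LECs (median 2.95%). The ratio of Cldn5 to Cdh5 TPM was 2.35 to 6.22 in heart BECs and 12.5 to 29.1 in heart LECs, and that of Jam2 to F11r was 1.90 to 2.82 in heart BECs, 0.0826 to 0.704 in heart LECs and 0.00696 to 0.173 in diaphragm LECs. Neither ratio overlapped between heart BECs and LECs. For Cldn5 to Cdh5 this follows from the levels above, where neither gene overlapped and they ran in opposite directions. Jam2 and F11r ran in opposite directions too, and Jam2 did not overlap. The Pecam1 to Cdh5 ratio did overlap, at 2.85 to 5.21 in heart BECs and 5.12 to 7.35 in heart LECs. The sum of the 9 genes was 3148 to 4691 TPM in heart BECs (median 4190), 2171 to 3377 TPM in heart LECs (median 2798) and 1989 to 3289 TPM in diaphragm LECs (median 2749).

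Cardiomyocytes do not form endothelial junctions, and their libraries give the level of these transcripts in the unsorted heart pellet. All 9 genes were higher in heart BECs than in cardiomyocytes, 6 of 9 in heart LECs and 5 of 9 in diaphragm LECs. In the other direction, Jam2 and Jam3 were higher in cardiomyocyte than in heart LEC libraries, and Jam2, Jam3 and Esam higher than in diaphragm LEC libraries (limma adjusted p at most 0.00882 for each of these 5 calls). Over all genes, 64.1% were higher and 10.8% lower in heart BECs than in cardiomyocytes, 58.7% higher and 7.81% lower in heart LECs, and 51.6% higher and 10.1% lower in diaphragm LECs, so a call in these comparisons is common. The cardiomyocyte libraries form a sequencing batch of their own, and population and batch cannot be told apart. The median of all genes lay at 0.61, 0.66 and 0.57 log2 units in these 3 comparisons and at 0.14, 0.15 and 0.17 after quantile normalization.

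Jam2 had 94.8 to 138 TPM in cardiomyocyte libraries (median 107), above all diaphragm LEC libraries, and heart LECs minus cardiomyocytes gave -0.98 log2 units (SE 0.18, limma adjusted p = 7.04e-05). Jam3 had 35.7 to 56.5 TPM (median 44.6), at -0.51 log2 units in heart LECs (SE 0.16, limma adjusted p = 0.00882). After quantile normalization these differences were -1.70 for Jam2 and -1.25 for Jam3, and in the ctrl libraries alone -1.28 and -1.14. Esam had 167 to 288 TPM (median 204), and heart LECs minus cardiomyocytes was -0.06 log2 units, with a 95% interval from -0.35 to 0.23, which became -0.73 (adjusted p = 0.000468) after quantile normalization. The remaining genes were lower than in any endothelial population apart from Ocln, with 105 to 173 TPM for Pecam1, 118 to 321 TPM for Cldn5, 39.3 to 64.0 TPM for F11r, 17.8 to 39.8 TPM for Cdh5 and 4.85 to 18.8 TPM for Tjp1. Ocln had 0.456 to 2.40 TPM (median 1.46), and diaphragm LECs minus cardiomyocytes was 0.02 log2 units, with a 95% interval from -0.53 to 0.57, which became -0.53 (adjusted p = 0.0288) after quantile normalization. For Esam and Cldn5 the balance was near that of heart BECs, with median shares of 27.1% and 21.7%. The median Jam2 to F11r ratio was 2.23, against 2.22 in heart BECs. Jam3 differed, with 5.16% to 7.51% of the sum in cardiomyocyte libraries and 2.56% to 4.29% in heart BECs. The Jam3 to F11r ratio was 0.806 to 1.03 in cardiomyocyte libraries and 0.382 to 0.745 in heart BECs, also without overlap. In the cardiomyocyte libraries the genes listed as blood endothelial markers summed to 821 to 1367 TPM, of which Cd36 alone had 320 to 655 TPM. Whether these transcripts came from endothelial cells was not tested. The part of endothelial transcripts in the levels of the junction genes was not tested either.

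The next question was whether angiotensin II, or VEGFCc156s given with it, went with other levels of the junction genes. Of the 108 tests of the 9 genes, for 3 contrasts in 4 populations, 0 passed a limma adjusted p under 0.05 and 17 had an unadjusted p under 0.05 (smallest adjusted p = 0.135, Esam in heart LECs). Over all genes the adjusted p was under 0.05 for 0.0261% in heart LECs for angII minus ctrl, for 0.0892% in cardiomyocytes for angII minus ctrl and 0.663% for angII+VEGFC minus ctrl, and for 0% in the other 9 contrasts.
At an unadjusted p under 0.05, angII minus ctrl gave 4 of the 9 genes in heart LECs beside 10.9% of all genes, 2 in diaphragm LECs beside 15.3%, 4 in heart BECs beside 5.4% and 0 in cardiomyocytes beside 9.85%. For angII+VEGFC minus angII there were 3 in heart LECs beside 10.8%, 2 in diaphragm LECs beside 8.78%, 0 in heart BECs beside 2.59% and 0 in cardiomyocytes beside 2.41%. For angII+VEGFC minus ctrl there were 0 in heart LECs beside 4.94%, 0 in diaphragm LECs beside 1.32%, 2 in heart BECs beside 5.51% and 0 in cardiomyocytes beside 12.9%. The contrasts of a population share libraries, so a level that is high in the angII libraries enters both angII minus ctrl and angII+VEGFC minus angII.

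**Figure D3:**
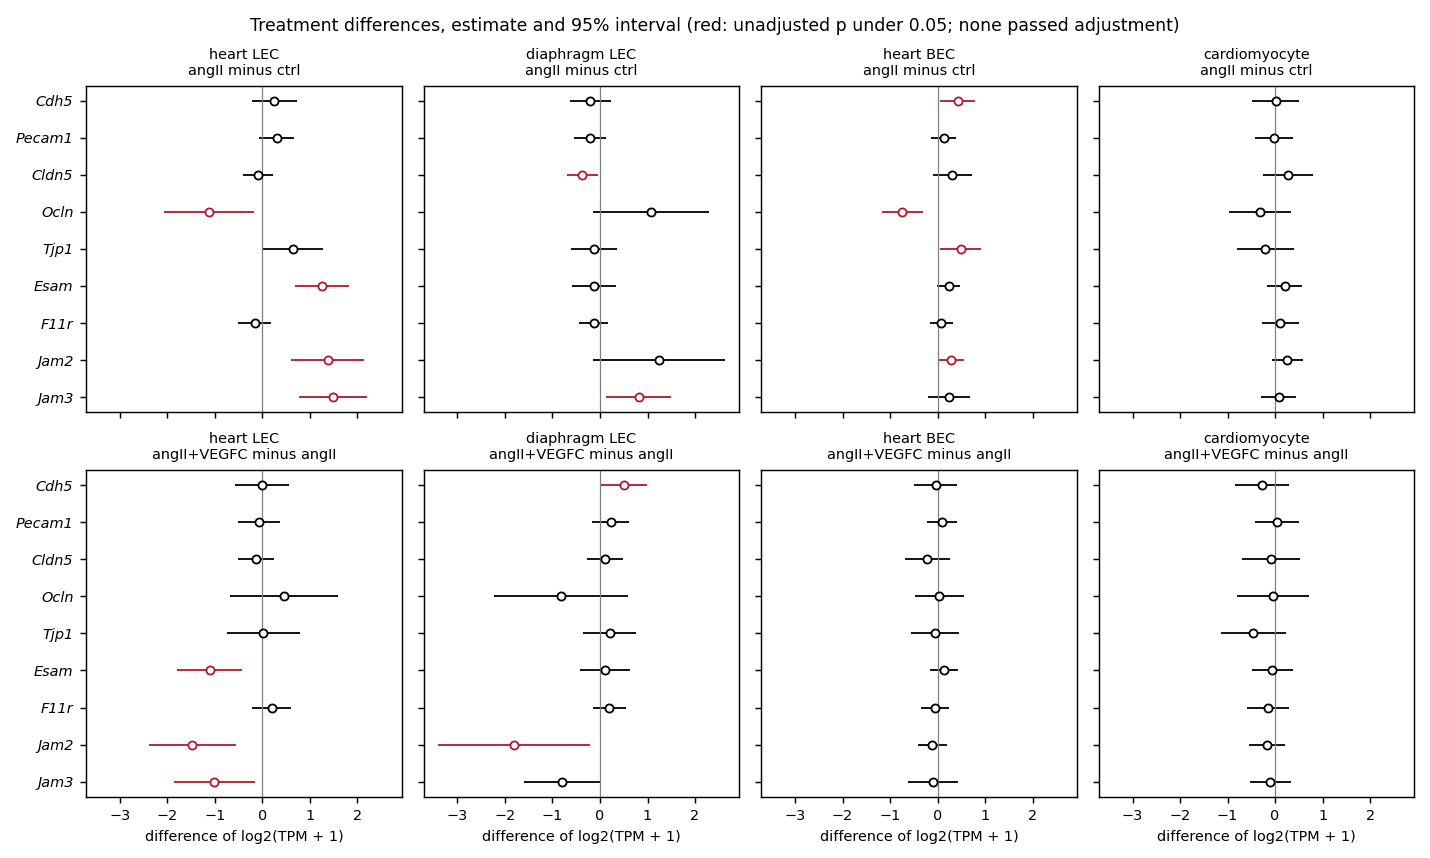
Difference of log2(TPM + 1) for angII minus ctrl (top row) and angII+VEGFC minus angII (bottom row) in each population, as the limma estimate with its 95% interval over 12 libraries; red marks an unadjusted p under 0.05. In heart LECs Esam, Jam2 and Jam3 lie right of 0 in the top row and left of 0 in the bottom row, and in the cardiomyocyte panels every interval spans 0.

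In heart LECs the values of Esam, Jam2 and Jam3 stood highest in the angII group. Esam had 188, 116, 122 and 148 TPM in the ctrl libraries, 294, 491, 216, 240 and 556 TPM in the angII libraries, and 142, 184 and 153 TPM in the angII+VEGFC libraries. Every angII library was above every library of the other groups. The angII minus ctrl difference was 1.26 log2 units (SE 0.27, 95% interval 0.69 to 1.83, limma adjusted p = 0.135), and angII+VEGFC minus angII was -1.11 (SE 0.32, limma adjusted p = 0.413). Without angII replicate 3, angII minus ctrl was 1.40 log2 units with an adjusted p of 0.045 in limma, and over the 12 fits that leave out 1 library the adjusted p ran from 0.045 to 0.327.
Jam2 had 44.4, 28.8, 73.2 and 31.5 TPM in ctrl, 103, 163, 69.3, 70.7 and 268 TPM in angII, and 43.2, 33.5 and 27.9 TPM in angII+VEGFC libraries. One ctrl library overlapped with the angII libraries and no angII+VEGFC library did. The differences were 1.37 log2 units for angII minus ctrl (SE 0.36, adjusted p = 0.22) and -1.47 for angII+VEGFC minus angII (SE 0.43, adjusted p = 0.413).
Jam3 had 29.0, 11.9, 15.5 and 24.7 TPM in ctrl, 70.5, 65.3, 34.1, 36.4 and 87.7 TPM in angII, and 28.9, 23.9 and 29.5 TPM in angII+VEGFC libraries. The angII libraries did not overlap with either group. The differences were 1.49 log2 units for angII minus ctrl (SE 0.34, adjusted p = 0.168) and -1.01 for angII+VEGFC minus angII (SE 0.41, adjusted p = 0.432).
Within batch 1 angII minus ctrl was 1.11 log2 units for Esam, 1.11 for Jam2 and 1.45 for Jam3, from 3 and 2 libraries, and within batch 2 it was 1.39, 1.80 and 1.45, from 2 and 2 libraries. The median difference over all genes was 0.23 log2 units for angII minus ctrl and -0.37 for angII+VEGFC minus angII, and -0.01 and 0.01 after quantile normalization, under which the 3 genes kept both signs. Within batches angII+VEGFC minus angII was -0.83 and -1.22 for Esam, -1.86 and -1.60 for Jam2 and -1.28 and -0.72 for Jam3, from 1 and 3 libraries in batch 1 and 2 and 2 in batch 2. With the count of genes reaching 1 TPM as a covariate, angII minus ctrl was 1.43 for Esam, 2.04 for Jam2 and 1.40 for Jam3.

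Some genes listed as markers of other cell types were also higher in these angII libraries. The 6 blood endothelial markers had a median difference of 0.31 log2 units for angII minus ctrl, beside 0.23 over all genes. Of the 6 blood endothelial markers, 3 had an unadjusted p under 0.05 for angII minus ctrl, all higher, and 0 an adjusted one in limma, with 1.07 log2 units for Cd36 (SE 0.32), 0.78 for Aqp1 (SE 0.28) and 0.43 for Kdr (SE 0.18). Cd36, a fatty acid transporter, had 339, 142, 366 and 309 TPM in ctrl libraries. Its levels were 651, 991, 350, 426 and 790 TPM in angII, and 361, 208 and 261 TPM in angII+VEGFC libraries. Aqp1, a water channel, had 255, 304, 275 and 433 TPM in ctrl, 558, 696, 367, 307 and 905 TPM in angII, and 381, 255 and 377 TPM in angII+VEGFC libraries. The sum of the 6 markers was 1634 to 2184 TPM in ctrl, 1899 to 3449 TPM in angII and 1771 to 1938 TPM in angII+VEGFC libraries. The angII replicates 2 and 5 were the highest for Esam, Jam2, Cd36 and Aqp1. The 4 erythroid markers summed to 6.98 to 2179 TPM in ctrl, 2061 to 6525 TPM in angII and 12.2 to 572 TPM in angII+VEGFC libraries, and angII replicate 1 held 575 TPM of 5 mural cell markers and 213 TPM of 6 epithelial and mesothelial ones. Of the 6 cardiomyocyte markers 2 were higher in angII at an unadjusted p under 0.05, of the 5 fibroblast markers 3 were higher (Col1a2 with an adjusted p of 0.0293 in limma) and 2 lower, and of the 5 mural markers 2 were higher. All 4 erythroid markers, 1 of 4 platelet markers and 2 of 5 epithelial and mesothelial markers tested were higher at that level too, and 0 of the 6 lymphatic and 0 of the 4 leukocyte markers differed. The fibroblast sum was lower, with medians of 1310 TPM in ctrl and 833 TPM in angII libraries. The part of all these marker transcripts in the differences of Esam, Jam2 and Jam3 was not tested. With angII replicates 2 and 5 both left out, a choice made after the values were seen, angII minus ctrl was 0.81 log2 units for Esam, 0.80 for Jam2 and 1.18 for Jam3 (adjusted p from 0.367 to 0.5265 in limma). For angII+VEGFC minus angII, Esam was then at -0.66 and Jam2 at -0.90, and Jam2 was at -2.44 with the count of genes reaching 1 TPM as a covariate.

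**Figure D4:**
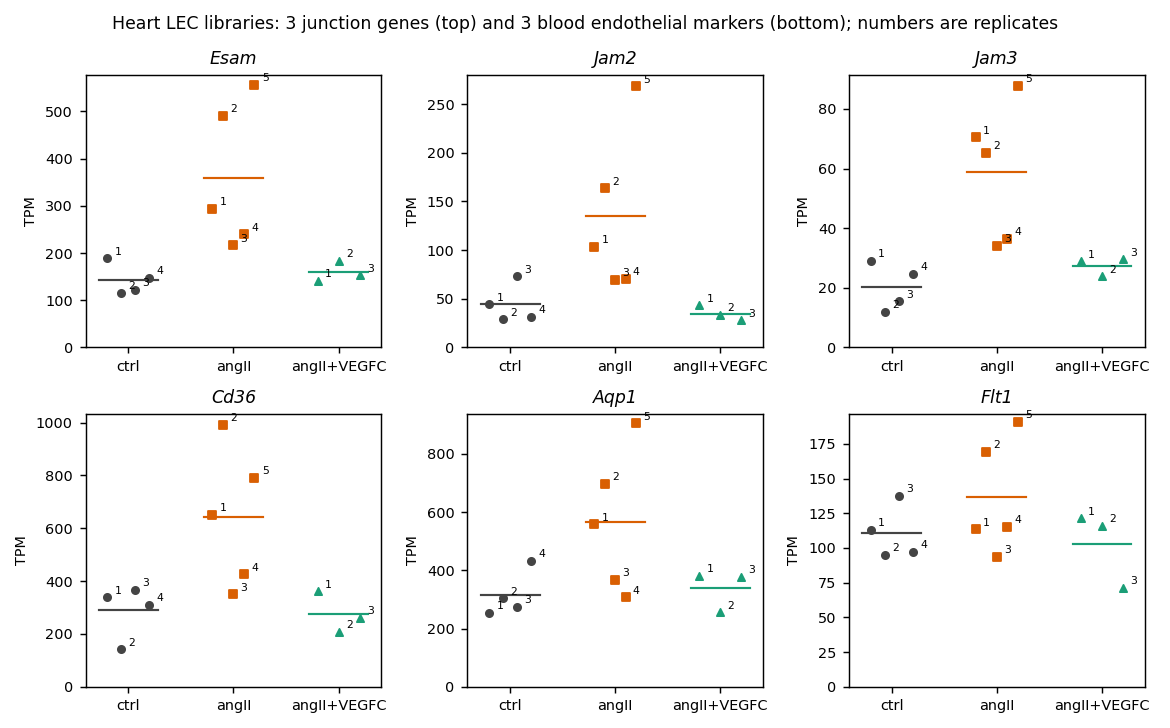
TPM (linear axes from 0) of Esam, Jam2 and Jam3 and of the blood endothelial markers Cd36, Aqp1 and Flt1 in the 12 heart LEC libraries by treatment, with replicate numbers beside the points and bars at the group means. The angII replicates 2 and 5 are the 2 highest points for Esam, Jam2, Cd36, Aqp1 and Flt1, and Esam and Jam3 in the angII libraries sit above all other libraries.

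Ocln lay lower in the angII libraries of both heart endothelial populations, without passing the adjusted test. In heart LECs it had 14.7, 7.58, 14.3 and 8.38 TPM in ctrl, 5.28, 2.27, 4.56, 7.57 and 5.66 TPM in angII, and 10.4, 3.26 and 5.03 TPM in angII+VEGFC libraries, a difference of -1.13 log2 units for angII minus ctrl (SE 0.45, limma adjusted p = 0.387). In heart BECs it had 7.90, 8.31, 5.32 and 4.66 TPM in ctrl, 4.60, 3.34, 2.53, 2.16 and 3.27 TPM in angII, and 3.17, 4.12 and 4.83 TPM in angII+VEGFC libraries. The ctrl and angII ranges did not overlap in either population, with gaps of under 0.1 TPM in both. The heart BEC differences were -0.74 log2 units for angII minus ctrl (SE 0.20, limma adjusted p = 0.697) and -0.71 for angII+VEGFC minus ctrl (SE 0.23, adjusted p = 0.845). Within batches angII minus ctrl was -0.77 and -0.97 log2 units in heart BECs and -1.33 and -0.76 in heart LECs. In diaphragm LECs Ocln had 1.06, 0.163, 0.908 and 1.01 TPM in ctrl and 3.12, 1.68, 10.3, 3.17 and 0.406 TPM in angII libraries, and 1.40, 1.39 and 0.594 TPM in angII+VEGFC libraries, with the highest value in the 1 mouse that has only a diaphragm LEC library.

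In heart BECs 4 further differences had an unadjusted p under 0.05 and none an adjusted one. Cdh5 had 110, 175, 184 and 188 TPM in ctrl and 199, 182, 238, 223 and 262 TPM in angII libraries (0.42 log2 units, SE 0.17, adjusted p = 0.898 in limma), with ctrl replicate 1 the lowest. Without that library the Cdh5 difference was 0.25, and with the count of genes reaching 1 TPM as a covariate 0.26. Tjp1 differed by 0.49 (SE 0.20) and Jam2 by 0.28 (SE 0.12) for angII minus ctrl, and Esam by 0.37 (SE 0.13) for angII+VEGFC minus ctrl, which was 0.22 without angII+VEGFC replicate 2. The within-batch values were 0.69 and 0.15 log2 units for Cdh5, 0.86 and 0.13 for Tjp1, 0.34 and 0.30 for Jam2, and 0.57 and 0.19 for Esam. Of the 6 blood endothelial markers 3 were higher for angII minus ctrl at an unadjusted p under 0.05 and 0 at an adjusted one, with sums of 4986 to 7165 TPM in ctrl and 6210 to 8473 TPM in angII libraries. At the same level 3 of the 5 mural markers were lower, with sums of 221 to 276 TPM in ctrl and 105 to 209 TPM in angII libraries, and 3 of the 5 platelet markers were lower, with sums of 71.1 to 169 TPM and 44.4 to 85.8 TPM. Of the 4 erythroid markers 2 were higher, with sums of 5212 to 7968 TPM in ctrl and 5736 to 31233 TPM in angII libraries. Another 1 of the 4 leukocyte markers tested was higher, and 1 lymphatic and 1 cardiomyocyte marker were lower. For angII+VEGFC minus ctrl 3 blood endothelial, 1 lymphatic and 1 erythroid marker were higher and 3 platelet and 2 cardiomyocyte markers lower at an unadjusted p under 0.05, and 0 passed an adjusted one. The first replicate of each group held 2206 to 3614 TPM of the 5 fibroblast markers, against 416 to 886 TPM in the other 9 heart BEC libraries. The part of these transcripts in the differences of Ocln, Cdh5, Tjp1, Jam2 and Esam was not tested.
In diaphragm LECs the same held for 4 differences. Jam2 had 3.03, 12.7, 34.7 and 3.94 TPM in ctrl, 12.6, 5.91, 49.1, 44.6 and 39.8 TPM in angII, and 3.59, 5.38 and 5.01 TPM in angII+VEGFC libraries, a difference of -1.81 log2 units for angII+VEGFC minus angII (SE 0.75, adjusted p = 0.567 in limma), with the angII libraries spread over nearly the whole range of the population. Jam3 differed by 0.81 (SE 0.32) and Cldn5 by -0.38 (SE 0.15) for angII minus ctrl, and Cdh5 by 0.50 (SE 0.23) for angII+VEGFC minus angII. Within batches the values were 0.89 and 0.70 for Jam3, -0.45 and -0.30 for Cldn5, 0.68 and 0.28 for Cdh5, and -2.25 and -1.76 for Jam2. With the count of genes reaching 1 TPM as a covariate the Jam3 value turned to -0.16, Cdh5 was at 0.11 and Jam2 at -3.26. Without angII replicate 3 the Cdh5 difference was 0.31. The 4 erythroid markers summed to 12.6 to 832 TPM in ctrl, 337 to 4853 TPM in angII and 433 to 622 TPM in angII+VEGFC libraries, and the 6 cardiomyocyte markers to 4.90 to 320 TPM, 12.4 to 414 TPM and 4.34 to 16.0 TPM. For angII minus ctrl 4 erythroid, 2 cardiomyocyte and 1 epithelial and mesothelial marker were higher at an unadjusted p under 0.05. No marker was lower at that level, and 0 passed an adjusted one. For angII+VEGFC minus angII 5 of the 6 cardiomyocyte markers, 1 leukocyte and 1 platelet marker were lower at an unadjusted p under 0.05, 1 lymphatic and 2 epithelial and mesothelial markers were higher, and 0 passed an adjusted one. The leukocyte markers summed to 17.1 to 126 TPM in ctrl, 42.3 to 257 TPM in angII and 9.66 to 20.5 TPM in angII+VEGFC libraries, and the platelet markers to 26.4 to 76.3 TPM, 27.9 to 129 TPM and 14.8 to 37.0 TPM. The fibroblast markers summed to 899 TPM in ctrl replicate 3 and 991 TPM in angII replicate 4, against 123 to 448 TPM in the others. Jam2 was at 34.7 and 44.6 TPM in these libraries. The others include angII replicates 3 and 5, with 49.1 and 39.8 TPM of Jam2. The part of all these marker transcripts in these differences was not tested. In the cardiomyocyte libraries the 9 differences ran from -0.32 to 0.27 log2 units for angII minus ctrl and from -0.46 to 0.04 for angII+VEGFC minus angII. For angII+VEGFC minus ctrl they ran from -0.67, that of Tjp1 (limma adjusted p = 0.402), to 0.18.

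Whether a treatment difference itself differed between endothelial populations was tested as an interaction. Of 54 such tests of the 9 genes 0 had an adjusted p under 0.05 in limma and 13 an unadjusted one, with a smallest adjusted p of 0.194. The share of all genes with an adjusted p under 0.05 was 0.00611% for angII minus ctrl in heart against diaphragm LECs and 0% in the other 5 interactions. For angII minus ctrl the unadjusted p was under 0.05 for 2 of the 9 genes in heart BECs against heart LECs beside 7.19% of all genes, for 4 in heart against diaphragm LECs beside 9.7% and for 3 in heart BECs against diaphragm LECs beside 11%. For angII+VEGFC minus angII the counts were 2 beside 6.43%, 1 beside 4.88% and 1 beside 7% in the same order. Esam had the smallest adjusted p, with an angII minus ctrl difference 1.33 log2 units higher in heart than in diaphragm LECs (SE 0.33, adjusted p = 0.194), and for Ocln this difference was -2.10 (SE 0.58, adjusted p = 0.241).

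The wider set of junction genes was followed in 5 lists, with 43 genes found in the matrix of 44 listed. The figures for heart BECs against heart LECs are set beside 8.64% of all genes higher and 8.94% lower, and beside a median of -0.15 log2 units over all genes. Of the 6 adherens junction partners in the cytoplasm 5 were higher in heart BECs and 0 lower (median 0.49 log2 units), led by Afdn, which encodes afadin and links nectins to actin (1.84, SE 0.17), and Vcl, which encodes vinculin (0.69, SE 0.12). Of the 8 tight junction scaffolds 1 was higher and 4 lower (median -0.48), with Pard6g, a polarity protein, at 372 ± 66.0 TPM in heart LECs, 621 ± 140 TPM in diaphragm LECs and 9.87 ± 2.27 TPM in heart BECs (SD, n = 12), a difference of -5.12 log2 units (SE 0.12), and its partner Pard3 at -1.14 (SE 0.18).
Of the 11 other claudins and tricellular proteins 1 was higher and 2 lower (median -0.28). Cldn11 differed by -2.95 log2 units (SE 0.20) from a low level of 7.68 ± 3.67 TPM in heart LECs (SD, n = 12). Lsr, which encodes angulin-1 of tricellular contacts, had 131 ± 46.7 TPM in heart LECs, 50.1 ± 16.1 TPM in diaphragm LECs and 20.3 ± 7.07 TPM in heart BECs (SD, n = 12), a difference of -2.62 (SE 0.17). The 8 claudins of this list were much lower than Cldn5, with a highest mean in any population of 24.6 TPM, that of Cldn15 in heart BECs. Claudins outside the list were not examined.
Of the 9 tested genes for other contact adhesion proteins 3 were higher and 1 lower (median -0.12), with Nectin2 at -2.72 log2 units (SE 0.11) and Mcam, which encodes CD146, at 2.27 (SE 0.26). Of the 9 regulators of VE-cadherin 5 were higher and 2 lower (median 0.26), with Ptprb, the phosphatase VE-PTP, at 1.91 (SE 0.14) and Radil, an effector of Rap1, at -2.69 (SE 0.18). Every gene named from these lists had an adjusted p of at most 3.42e-05 in limma.

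**Figure D5:**
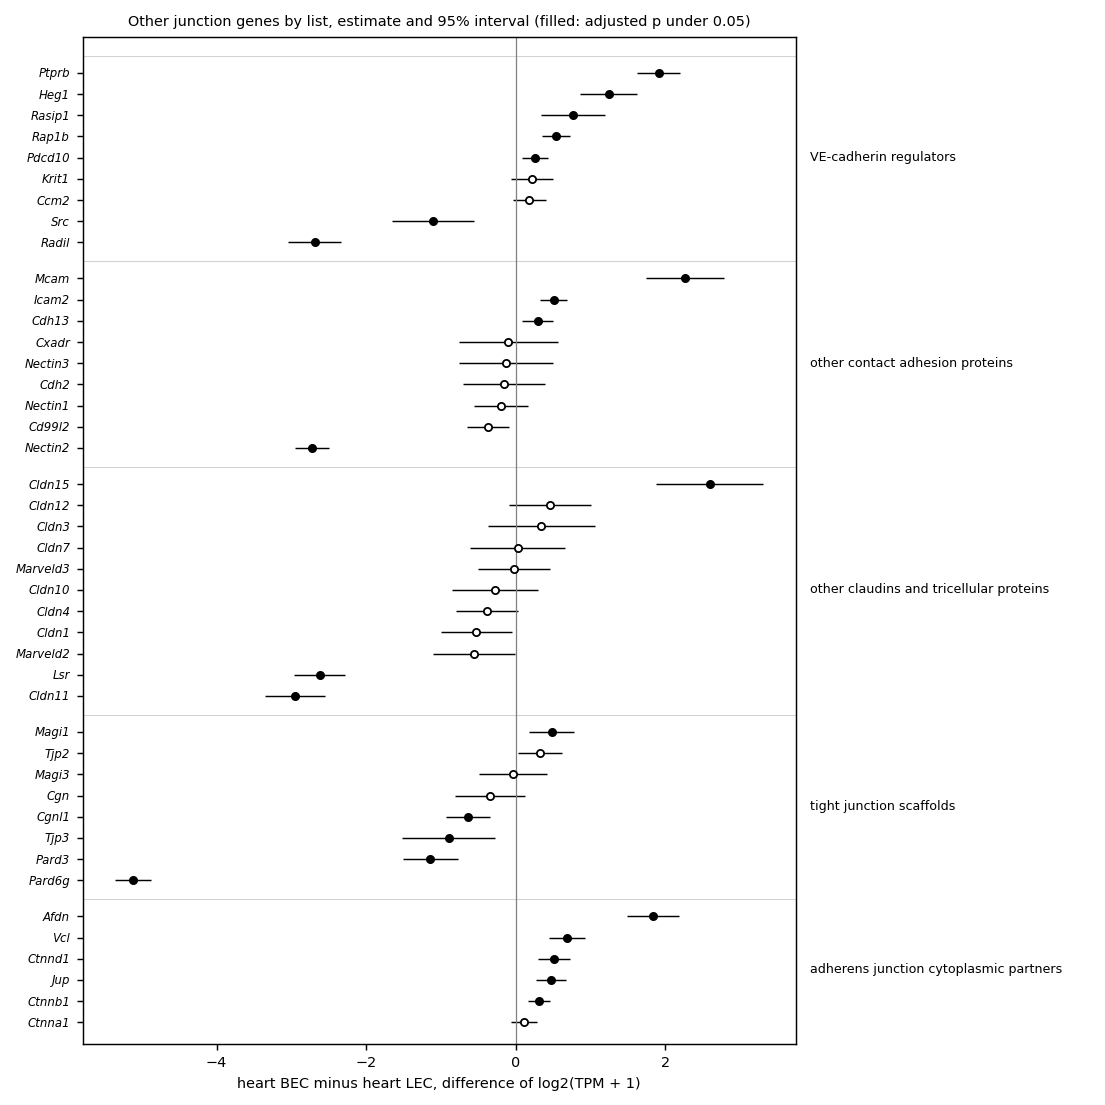
Difference of log2(TPM + 1) for heart BECs minus heart LECs (horizontal axis) of the 43 other junction genes found, grouped in 5 lists, as the limma estimate with its 95% interval over 36 libraries; filled points have an adjusted p under 0.05. Pard6g at -5.12 lies farthest to the LEC side, and 5 of the 6 adherens junction partners lie to the BEC side with filled points.

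Between heart and diaphragm LECs, where 2.67% of all genes were higher and 1.88% lower in the heart, the lists had 0 higher and 3 lower in the heart among the adherens partners, 1 and 2 among the scaffolds, 2 and 0 among the claudins and tricellular proteins, 2 and 1 among the contact proteins and 1 and 0 among the regulators of VE-cadherin. In the 12 treatment contrasts 0 genes of the 5 lists passed a limma adjusted p under 0.05. At an unadjusted p under 0.05, angII minus ctrl in heart LECs gave 1 of 6 adherens partners, 1 of 8 scaffolds, 2 of 9 claudins and tricellular proteins, 2 of 8 contact proteins and 1 of 9 regulators of VE-cadherin, of the genes tested there, beside 10.9% of all genes.

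Over the 48 libraries, the genes whose log2(TPM + 1) was most correlated with each junction gene were ranked among 9810 genes with a mean of 10 TPM or more in at least 1 population. The correlations are descriptions. All libraries share the contrast between populations, and libraries of 1 mouse share that mouse. Cdh5 was most like Podxl, Ets1 and Cav1 (Pearson r 0.9749 to 0.9693), Pecam1 most like Cav1, Tie1 and Il2rg (0.990 to 0.980), and Cldn5 most like Smad1, Sptlc2 and Ecscr (0.9786 to 0.9751). Ocln followed no gene as closely, with Epha7, Smtnl2 and Cgnl1, which encodes the tight junction protein paracingulin, at 0.787 to 0.736. Tjp1 was nearest to Sptbn1, Fgd5 and 4931406P16Rik (0.955 to 0.944), Esam to Cd81, Tspan7 and Gm8995 (0.978 to 0.971) and F11r to Gng11, Elk3 and Aplp2 (0.989 to 0.983). Jam2 was nearest to Ly6c1, Ly6a and Slc28a2 (0.983 to 0.980) and Jam3 to Slc28a2, Nrp1 and Kitl (0.957 to 0.948). Among the members themselves, r was 0.909 to 0.930 within Esam, Jam2 and Jam3, 0.968 between Cldn5 and F11r, and 0.959 between Cdh5 and Pecam1, whereas Jam2 had an r of -0.376 with Cldn5 and -0.297 with F11r.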

How the data were processed

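RNA-seq libraries of sorted endothelial cells and pelleted cardiomyocytes were analysed as 12 groups of population and treatment taken from the labels. The authors made the libraries from low-input RNA with Smart-Seq and Nextera XT kits, aligned the reads to GRCm38 with STAR 2.5.3a, quantified Ensembl genes with Salmon 0.12.0 and deposited one matrix in TPM. TPM keeps no read count, so the depth is unknown and no counting interval was given. A symbol was found for 54723 of 54752 genes, and positions are from the GENCODE annotation of GRCm38. The 9 genes and the gene lists were chosen with earlier results of these data known.

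Values were transformed to log2(TPM + 1), which understates the change of genes with low levels. A gene was tested if 3 or more libraries of a fit reached 1 TPM, with limma 3.58.1 in R 4.3.3, with a mean-variance trend and Benjamini-Hochberg adjustment over all genes tested. The 36 endothelial libraries were fitted together with age and batch as covariates, cardiomyocytes with 1 endothelial population at a time with age, and treatments within each population. Population contrasts are means over the 3 treatments. Differences are printed as first minus second group. The 9 genes were described throughout. Treatment differences of single genes were given where the unadjusted p was under 0.05, and of each list the 2 genes with the largest differences between heart LECs and heart BECs among those that passed. Within a population the samples are separate mice, and the same mouse number in several populations is the same animal. The main population and interaction fits had no term for the mouse, so libraries of 1 mouse entered them as independent samples. Deviations of same-mouse libraries from their group means had a mean correlation of 0.129 between heart LECs and BECs and -0.01 to 0.092 between the other pairs. The code was tested on simulated data. Tables were made with pandas 2.3.3 and figures with matplotlib 3.10.9 in Python 3.11.15.

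Other settings tried were no low-value filter, a pseudocount of 0.1, quantile normalization, no covariates, the mouse as a block, the ctrl libraries alone, 1 surrogate variable, the count of genes reaching 1 TPM as a covariate, a fit of the compared groups alone, and each mouse or library left out in turn. A list of gap junction genes is not reported here. Leaving out 2 heart LEC libraries together was added after the data were seen.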

Additional observations from a re-analysis of the deposited data

Results flagged for a closer look

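Of the 72 groups of 4 or 5 libraries examined, 4 held a value of a junction gene that stood apart from the others by Dixon's criterion at 95%, a number close to the 1 in 20 that chance gives. Cdh5 was at 110 TPM in heart BEC ctrl replicate 1, below 175 to 188 TPM in the other 3 ctrl libraries. F11r was at 41.8 TPM in cardiomyocyte ctrl replicate 2, below 49.2 to 49.7 TPM in the others. Ocln was at 0.163 TPM in diaphragm LEC ctrl replicate 2, below 0.908 to 1.06 TPM, and at 10.3 TPM in diaphragm LEC angII replicate 3, above 0.406 to 3.17 TPM. No interaction of population and treatment passed the adjusted test for any of the 9 genes.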

How the results depend on the processing

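Between populations, the counts of junction genes called kept within 1.5 times of the reported count under each alternative, except in the ctrl libraries alone, where heart against diaphragm LECs gave 1 gene in place of 5. There the differences were 0.60 log2 units for Esam, -0.33 for F11r, 2.10 for Jam2 and 0.73 for Jam3, none called, and the signs turned for Cdh5 (-0.071) and Pecam1 (-0.14), neither of which was called. Fewer libraries enter that fit, and the Esam and Jam3 differences were also smaller than the 1.16 and 1.13 log2 units over all treatments. Ocln in diaphragm LECs minus cardiomyocytes, near 0 as reported, became -0.065 with a pseudocount of 0.1, -0.53 with quantile normalization, -0.054 with the replicate block and -0.63 in the ctrl libraries alone, and ran from -0.11 to 0.18 with each mouse left out. Tjp1 in heart BECs minus diaphragm LECs was called with no covariates (0.42) and with the replicate block (0.39), and in 2 of 13 fits that left out 1 mouse (0.32 to 0.49), and was at 0.097 in the ctrl libraries alone, not called. Esam in heart LECs minus cardiomyocytes was called with quantile normalization (-0.73). The cause of these changes was not tested. The mouse block changed no other call of the 9 genes. Of the 12 treatment contrasts, 11 had 0 junction genes called under every alternative, and heart LECs for angII minus ctrl had 0 to 1 with each library left out, the 1 being Esam without angII replicate 3. Jam3 for angII minus ctrl in diaphragm LECs turned from 0.81 to -0.16 with the count of genes reaching 1 TPM as a covariate. No paired analysis was possible for the treatments because the groups hold different mice. Treatment differences that moved by over 1.5 times ran, with each library left out, from 0.25 to 0.52 for Cdh5 in heart BECs and from 0.31 to 0.69 for Cdh5 in diaphragm LECs, and from 0.22 to 0.52 for Esam in heart BECs. Depth is unknown, and the levels of Ocln, down to 0.163 TPM, are the least certain.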
